A study of Saccharomyces cerevisiae with 2 samples.

Results

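Mitochondrial protein import and folding was described here through 36 genes, out of 5659 genes listed for the budding yeast Saccharomyces cerevisiae. They were taken by symbol from a list that was chosen with earlier results of these data known. It holds the translocases of both mitochondrial membranes, the intermembrane space chaperones, the import motor, the presequence peptidase and the matrix chaperonin. All 36 had reads in both libraries, from 18 to 4387 reads a gene and library, and all passed the filter of a mean of at least 1 RPKM (reads per kilobase of gene and per M reads of the library; M, mega). Poly(A) RNA of 2 strains was sequenced, with 1 library each. ZGR3 is a mutant of ZTW1 with ZTW1 as its genetic background, and ZTW1 is a wild type strain; both are labelled as bioethanol strains, and the mutation in ZGR3 is not given in the sources used here. Cultures of 25 mL were started at an optical density of 0.05 in YPD (yeast extract, peptone and 20 g/L glucose), and RNA was taken at the entry into early stationary phase. The labels name no other treatment for either strain.

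Nearly all mitochondrial proteins are encoded in the nucleus, made in the cytosol and imported. The TOM complex is the entry gate of the outer membrane. From there the SAM complex inserts beta-barrel proteins, the MIA relay folds cysteine-rich proteins of the intermembrane space, the small TIM proteins chaperone hydrophobic precursors, TIM22 inserts carriers and TIM23 passes presequence proteins to the matrix, where the PAM motor around the mitochondrial Hsp70 pulls them in. The presequence is then cut off by a peptidase of 2 subunits, and many proteins fold in the Hsp60 chaperonin.

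The libraries held 4.61 M reads assigned to genes in ZGR3 and 4.66 M in ZTW1, and 5612 genes had reads in ZGR3 and 5626 in ZTW1. Among the 5532 genes tested, the median gene had 189 reads in ZGR3 and 196 in ZTW1, and the median log2 ratio was −0.02. Log2 ratios are ZGR3 over ZTW1 after 1 RPKM was added to both levels. With 1 library per strain there is no replicate check and no test, so differences are given by size, with 95% counting intervals that cover counting error only and compare these libraries, not the strains. Reads are shares of a library, so less RNA of a gene per cell and fewer cells that express it cannot be told apart.

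Transcripts of the import machinery were mostly lower in ZGR3. The 36 genes together took 0.328% of the reads in ZGR3 (95% Clopper-Pearson interval 0.323 to 0.334) and 0.405% in ZTW1 (0.399 to 0.410). Of the 36 genes, 32 had a log2 ratio below 0, or 88.9%, against 52.0% of all genes tested. A log2 ratio at or below −0.322, the log2 of 4 to 5, was found for 19 genes, or 52.8%, against 19.2% of all genes. None of the 36 was at or above 0.322, where 12.8% of all genes were. These lines are written below as −0.32 and 0.32, and they apply after 1 RPKM was added. None was at least 2-fold lower or higher, and over all genes these shares were 1.92% and 0.542%. The median log2 ratio of the 36 genes was −0.34, with a range of −0.88 to 0.10. The counting interval of the fold lay below 1 for 20 genes, or 55.6%, against 19.8% of all genes, and above 1 for none, against 17.9%. The 36 genes had a median of 209.5 reads in ZGR3 and 287 in ZTW1, against 189 and 196 over all genes tested. An interval is narrower where there are more reads.

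**Figure D1:**
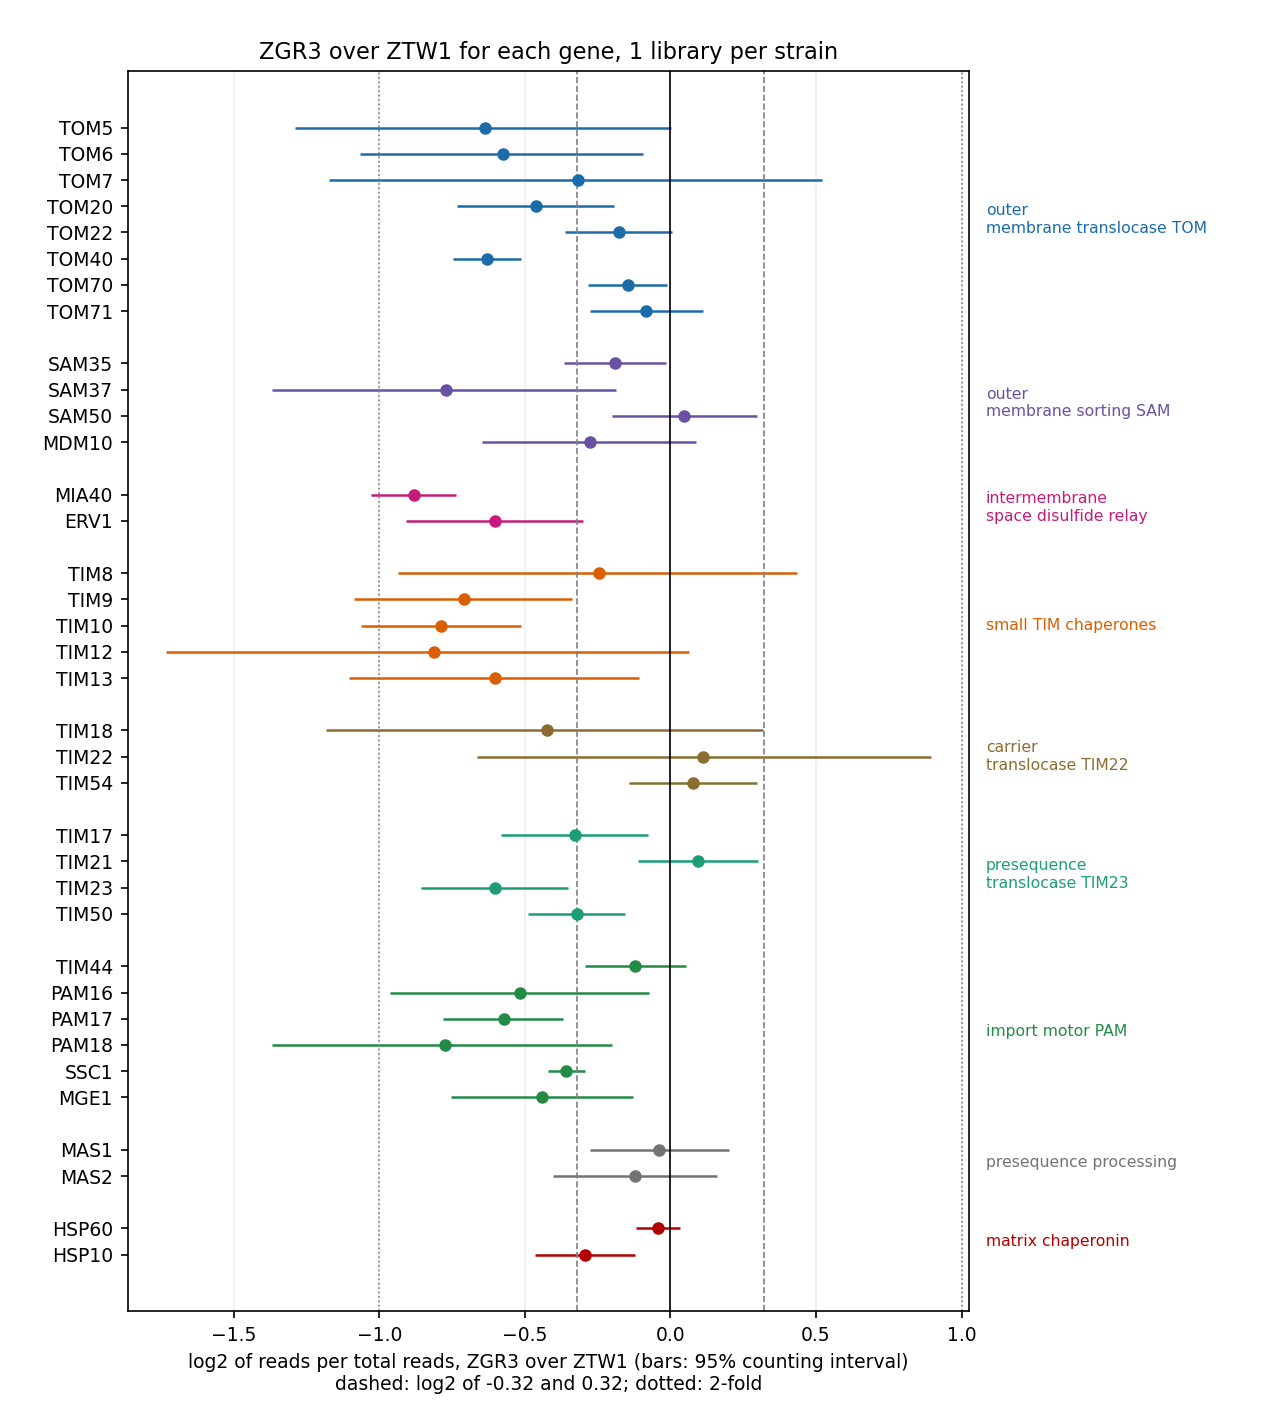
Log2 of reads per total reads, ZGR3 over ZTW1, for the 36 genes by role (points, 1 library per strain), with 95% counting intervals (bars) and lines at −0.32 and 0.32 (dashed) and at 2-fold (dotted). The relay, small TIM and motor genes lie mostly left of the dashed line at −0.32, while TIM22, TIM54, TIM21 and SAM50 lie just right of 0.

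The disulfide relay of the intermembrane space was lower in both of its genes. MIA40, the oxidoreductase that receives cysteine-rich precursors and oxidises them, had 584 reads and 105 RPKM in ZGR3, against 1088 reads and 193 RPKM in ZTW1. It was 1.84-fold lower in ZGR3 (1.66 to 2.04), the log2 ratio furthest from 0 of the 36 genes at −0.88. ERV1, the sulfhydryl oxidase that reoxidises Mia40, had 57.5 RPKM in ZGR3 and 87.3 RPKM in ZTW1 and was 1.52-fold lower (1.23 to 1.88). MIA40 lies on chromosome XI, whose tested genes had a median log2 ratio of −0.24, and the 20 genes nearest to MIA40 had a median of −0.38. After subtraction of the median of the nearest genes, an alternative added after seeing the data, the log2 ratio of MIA40 was −0.49. The genes nearest to ERV1 had a median of −0.21, and the same subtraction took ERV1 from −0.60 to −0.38. The median of the relay was −0.74 before and −0.44 after it. The part of the chromosomal neighbourhoods in these results was not tested. PAM17, like MIA40, is on chromosome XI, but the genes nearest to PAM17 had a median of 0.06.

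Substrates and clients of this relay include the small TIM proteins, and 4 of 5 of their genes were at or below −0.32 in ZGR3 over ZTW1, against 19.2% of all genes and 38.5% of all genes that are as short, up to 350 bases. Tim9 and Tim10 form the hexamer that carries hydrophobic precursors across the intermembrane space. TIM10 had 135 RPKM from 176 reads in ZGR3, against 234 RPKM from 307 reads in ZTW1, and was 1.73-fold lower (1.43 to 2.09). TIM9 had 80.5 RPKM in ZGR3 and 132 RPKM in ZTW1, 1.63-fold lower (1.26 to 2.12). Per length, TIM10 was above TIM9 in both libraries, by 1.68-fold in ZGR3 (1.31 to 2.18) and 1.77-fold in ZTW1 (1.46 to 2.16), so the proportion of these partners was alike within counting error.

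TIM12 encodes the peripheral small TIM protein that docks the hexamer on the TIM22 translocase. It had only 18 reads in ZGR3 and 32 in ZTW1, and its fold, 1.76-fold lower, had an interval of 0.958 to 3.33 that includes equality. Its level was a small part of that of TIM10, at a ratio of 0.0874 in ZGR3 (0.0506 to 0.142) and 0.0891 in ZTW1 (0.0599 to 0.128). Tim8 and Tim13 form the other hexamer, which assists precursors such as that of Tim23. TIM13 had 58 reads in ZGR3 and 89 in ZTW1 and was 1.52-fold lower (1.08 to 2.15). For TIM8, with 35 reads in ZGR3 and 42 in ZTW1, this depth could not show a difference (1.19-fold lower, 0.740 to 1.91).

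The carrier translocase that these chaperones feed was the 1 role of 9 with a median log2 ratio above 0, at 0.08. After subtraction of the median of the nearest genes it was −0.02. TIM54, a subunit with a large intermembrane space domain, had 53.0 RPKM in ZGR3 and 50.2 RPKM in ZTW1, a fold of 1.06 (0.907 to 1.23). TIM22, the channel subunit, had 31 reads in ZGR3 and 29 in ZTW1, a fold of 1.08 (0.630 to 1.86). TIM18, a further membrane subunit, had 28 reads in ZGR3 and 38 in ZTW1, with a log2 ratio of −0.39 and a fold of 0.745 (0.440 to 1.246). All 3 intervals include equality, and those of TIM18 and TIM22 are wide because of their few reads. That the TIM22 complex and the small TIM genes differ from each other was not tested, as no test over samples is possible here.

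In the outer membrane, all 8 TOM genes had log2 ratios below 0, and 4 were at or below −0.32 (against 19.2% of all genes). TOM5 and TOM6 are among these 4, and for all genes as short, up to 350 bases, the share was 38.5%. The median of the TOM genes was −0.38, and −0.25 after subtraction of the running median by coding length. TOM40, the beta-barrel pore, had 965 reads and 180 RPKM in ZGR3, against 1510 reads and 278 RPKM in ZTW1. It was 1.55-fold lower in ZGR3 (1.43 to 1.68), and its interval lay wholly beyond a fold of 5 to 4. Among the receptors, TOM20, which recognises presequences, had 77.8 RPKM in ZGR3 and 107 RPKM in ZTW1, 1.38-fold lower (1.14 to 1.66).

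The other receptors differed less in size. TOM70, the receptor for carrier precursors, had 98.2 RPKM in ZGR3 and 109 RPKM in ZTW1, 1.11-fold lower (1.01 to 1.22). Its paralog TOM71 had 47.7 RPKM in ZGR3 and 50.5 RPKM in ZTW1, and its interval for a lower level, 0.926 to 1.21, includes equality. TOM22, the central receptor that also holds the pores together, had 216 RPKM in ZGR3 and 245 RPKM in ZTW1, again with an interval that includes equality (1.13-fold lower, 0.996 to 1.29). TOM70 and TOM71 were at a ratio of 2.06 in ZGR3 (1.83 to 2.32) and 2.15 in ZTW1 (1.92 to 2.41).

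The small TOM subunits, which stabilise the complex, have coding lengths of 153 to 186 bases and so few reads. TOM6 had 61 reads in ZGR3 and 92 in ZTW1 and was 1.49-fold lower (1.07 to 2.10). TOM5 had 35 reads in ZGR3 and 55 in ZTW1, 1.55-fold lower with an interval that just includes equality (0.999 to 2.45). TOM7 had 23 reads in ZGR3 and 29 in ZTW1, and this depth could not show a difference (fold 0.802, 0.443 to 1.44).

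The beta-barrel sorting genes ranged from a log2 ratio of −0.71 to 0.05. SAM50, the insertase itself, had 40.9 RPKM in ZGR3 and 39.5 RPKM in ZTW1, a fold of 1.03 (0.870 to 1.23). SAM37, a peripheral subunit, was the member with the lowest level in ZGR3, at 8.82 RPKM from 40 reads, against 15.0 RPKM from 69 reads in ZTW1, and was 1.71-fold lower (1.14 to 2.59). SAM35, which recognises the sorting signal, had 110 RPKM in ZGR3 and 125 RPKM in ZTW1, 1.14-fold lower (1.01 to 1.29).

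MDM10, a beta-barrel protein shared by SAM and the tether between mitochondria and endoplasmic reticulum, had 115 reads in ZGR3 and 141 in ZTW1, with a fold of 0.825 (0.639 to 1.06). TOM40, a substrate of Sam50, was 4.40 times SAM50 per length in ZGR3 (3.85 to 5.05) and 7.04 times in ZTW1 (6.18 to 8.05). These intervals do not overlap, as TOM40 was lower in ZGR3 and SAM50 was close to equal. Other pairs of partners were compared in the same way, not all of them given here. TOM40 and SAM50 were the only pair without overlap.

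**Figure D2:**
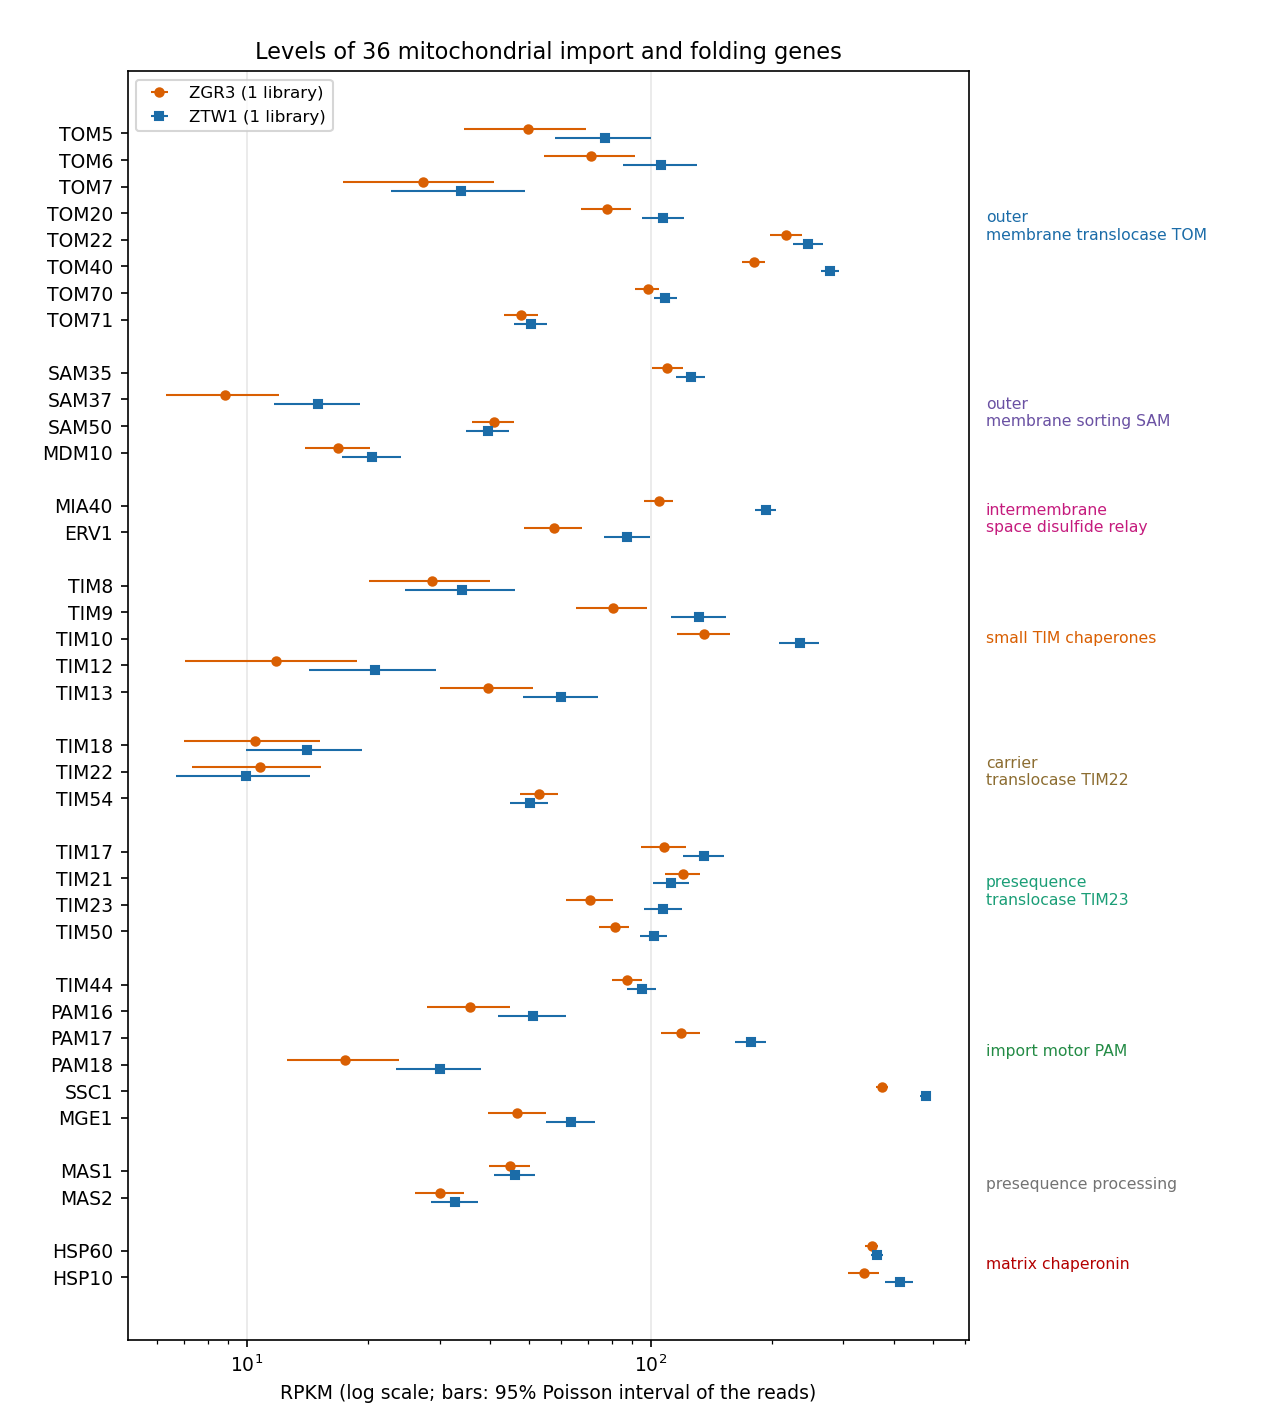
RPKM on a log axis for each of the 36 genes, grouped by role, in the ZGR3 library (circles) and the ZTW1 library (squares), with 95% Poisson intervals of the reads. SSC1, HSP60 and HSP10 stand highest in both libraries, and the levels span 42.4-fold in ZGR3 and 48.0-fold in ZTW1.

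At the inner membrane, the TIM23 channel subunits were lower in ZGR3, while TIM21 lay just above equality. TIM23, the channel-forming subunit that gives the complex its name, had 218 reads and 70.7 RPKM in ZGR3, against 335 reads and 107 RPKM in ZTW1, 1.52-fold lower (1.28 to 1.81). TIM17, its partner in the membrane, had 108 RPKM in ZGR3 and 135 RPKM in ZTW1, 1.26-fold lower (1.06 to 1.496). TIM50, the presequence receptor, had 81.4 RPKM in ZGR3 and 102 RPKM in ZTW1, 1.251-fold lower (1.12 to 1.403). With 1 RPKM added its log2 ratio was −0.319, just short of the line at −0.322, so it is not among the 19 genes. TIM21, which links TIM23 to TOM and to the respiratory chain, had 120 RPKM in ZGR3 and 112 RPKM in ZTW1, a fold of 1.07 (0.925 to 1.23).

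In the import motor 5 of 6 genes were at or below −0.32, or 83.3%, against 19.2% of all genes. SSC1, the mitochondrial Hsp70 that drives import into the matrix, had the most reads of the 36 genes, 3387 reads and 374 RPKM in ZGR3 and 4387 reads and 479 RPKM in ZTW1. It was 1.28-fold lower in ZGR3 (1.22 to 1.34). Its nucleotide exchange factor MGE1 had 46.7 RPKM in ZGR3 and 63.4 RPKM in ZTW1, 1.36-fold lower (1.09 to 1.69). SSC1 stood at 8.001 times MGE1 per length in ZGR3 (6.79 to 9.497) and 7.56 times in ZTW1 (6.56 to 8.74), ratios whose intervals overlap.

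PAM18, the J-protein that stimulates the Hsp70, had 41 reads in ZGR3 and 71 in ZTW1 and was 1.71-fold lower (1.15 to 2.58). PAM16, the J-like protein that holds Pam18 in place, had 74 reads in ZGR3 and 107 in ZTW1 and was 1.43-fold lower (1.05 to 1.95). PAM17, which takes part in organising the motor, had 119 RPKM in ZGR3 and 177 RPKM in ZTW1, 1.49-fold lower (1.29 to 1.72). The exception was TIM44, which anchors the Hsp70 at the channel, with 87.5 RPKM in ZGR3 and 95.2 RPKM in ZTW1 and an interval that includes equality (fold 0.920, 0.815 to 1.04).

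Downstream of import, none of the 4 processing and chaperonin genes was at or below −0.32, where 19.2% of all genes were. With only 4 genes, a count of none lies near that share. MAS1 and MAS2, the subunits of the peptidase that removes presequences, had folds of 0.974 (0.825 to 1.15) and 0.920 (0.756 to 1.12). MAS1 had 44.8 RPKM in ZGR3 and 46.0 RPKM in ZTW1, and MAS2 had 30.1 RPKM in ZGR3 and 32.7 RPKM in ZTW1. HSP60, the chaperonin, had 2796 reads and 353 RPKM in ZGR3 and 2911 reads and 363 RPKM in ZTW1. At this depth the fold of HSP60, 0.971, had an interval of 0.922 to 1.023, which holds no difference as large as 5 to 4 between these libraries.

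HSP10, the lid of the chaperonin, had 337 RPKM in ZGR3 and 413 RPKM in ZTW1 and was 1.22-fold lower (1.09 to 1.38). Per length HSP60 was 1.05 times HSP10 in ZGR3 (0.951 to 1.15) and 0.880 times in ZTW1 (0.806 to 0.961), with intervals that overlap slightly.

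Levels kept much the same order in both libraries. Per length, SSC1 was the highest and TOM40, TOM22 and TIM10 followed the matrix chaperonin in both, although TOM22 stood above TOM40 in ZGR3 and below it in ZTW1. The lowest was SAM37 in ZGR3, at 8.82 RPKM, and TIM22 in ZTW1, at 9.97 RPKM. The median level was 64.1 RPKM in ZGR3 and 91.3 RPKM in ZTW1, against 31.8 and 32.6 RPKM over all genes tested in these libraries. Of 35 neighbouring pairs in the order, 32 had overlapping 95% Poisson intervals in ZGR3 and 30 in ZTW1, so most ranks are not resolved. Across the 36 genes, which are no replicates, log2 RPKM in ZGR3 and ZTW1 had a Pearson's r of 0.979 and a Spearman's rho of 0.972.

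Coding length moved with the ratio over the whole table, and many of these genes are short. The median coding length was 646.5 bases for the 36 genes and 1236 bases for all genes tested. Among the 9 genes of up to 350 bases, which are the small TOM and TIM genes and HSP10, the median log2 ratio was −0.59, against −0.22 for all 348 tested genes of that length. For the other 27 the median was −0.32, against −0.01 for all 5184 longer genes. At or below −0.32 were 6 of the 9 short genes (66.7%), against 38.5% of all short genes, and 13 of the 27 longer ones (48.1%), against 17.9% of all longer genes. After subtraction of a running median over genes ordered by length, the median of the 36 genes was −0.29, and 32 of 36 values were below 0.

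**Figure D3:**
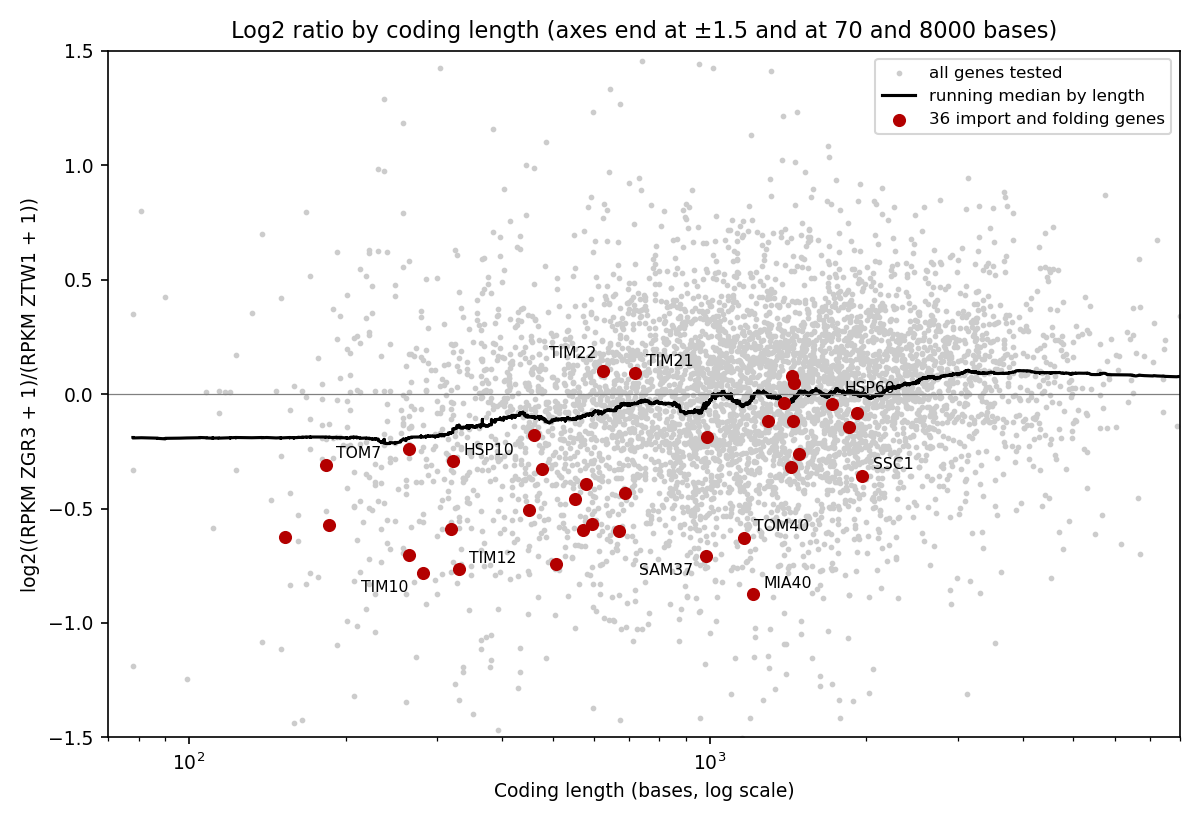
Log2 ratio, ZGR3 over ZTW1, against coding length on a log axis for all genes tested (grey), the running median by length (line) and the 36 import and folding genes (red), with 59 genes outside the axes. The red points lie mostly below the line at short and at long lengths, and TIM22, TIM21, TIM54 and SAM50 lie above it.

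The 36 genes are spread over 14 chromosomes, and the closest of them on a chromosome lie 4 tested genes apart, so no adjacent genes are among them. In the RefSeq table of assembly R64 no other gene overlaps any of the 36. SSC1 has a close paralog in ECM10, and TOM70 one in TOM71. The deposited reads are those assigned uniquely, and sharing of reads between such paralogs was not tested.

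Other genes of mitochondrial import, processing and folding, 40 in a list that holds none of the 36, lay near the background in size of difference. Of these, 6 were at or below −0.32 (15.0%) and 4 at or above 0.32 (10.0%), beside 19.2% and 12.8% of all genes, and their median log2 ratio was −0.05. By direction they leaned lower, with 60.0% below 0, against 52.0% of all genes. Their interval lay below 1 for 11 (27.5%, against 19.8%) and above 1 for 4 (against 17.9%). These 40 genes had a median of 273 reads in ZGR3 and 266.5 in ZTW1, against 189 and 196 over all genes tested. The lowest was HOT13, a zinc-binding protein of the intermembrane space that helps keep Mia40 oxidised, with 4 reads in ZGR3 and 18 in ZTW1, a log2 ratio of −1.79. Its fold, 4.45-fold lower, has a wide interval of 1.47 to 18.1. HOT13 lies on chromosome XI, as MIA40 does, and the 20 genes nearest to HOT13 had a median log2 ratio of −0.38. The part of this neighbourhood in its ratio was not tested. MGR2, a subunit that controls the lateral gate of TIM23, had 223 reads in ZGR3 and 313 in ZTW1, 1.39-fold lower (1.17 to 1.66).

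Next among the lowest, TCM62, a chaperone-like protein related to Hsp60, had a log2 ratio of −0.42 and a fold of 0.738 (0.596 to 0.913). COX18, which inserts a cytochrome oxidase subunit into the membrane, had a log2 ratio of −0.38. The fold of COX18, 0.758 (0.570 to 1.005), has an interval that includes equality. At the other end, ECM10, the paralog of SSC1, had 530 reads and 59.4 RPKM in ZGR3 and 367 reads and 40.7 RPKM in ZTW1, 1.46-fold higher (1.28 to 1.67). PRD1, an oligopeptidase, was 1.30-fold higher (1.201 to 1.401). SOM1, of the inner membrane peptidase, and MDM12, of the tether to the endoplasmic reticulum, had log2 ratios of 0.35 and 0.34, with intervals that include equality. HSP78, the matrix disaggregase, and MDJ1, the J-protein of matrix folding, which are named here after their values were seen, were 1.16-fold higher (1.09 to 1.24) and 1.201-fold higher (1.06 to 1.36). CPR3, the matrix cyclophilin, and ZIM17, which keeps the mitochondrial Hsp70 soluble, likewise named afterwards, had folds of 0.828 (0.755 to 0.909) and 0.798 (0.655 to 0.970). Among the 9 other matrix chaperone genes, which include these and ECM10 and TCM62, the median log2 ratio was −0.08. Their interval lay above 1 for 3 (against 17.9% of all genes) and below 1 for 3 (against 19.8%). These 9 genes had a median of 279 reads in ZGR3 and 257 in ZTW1, against 189 and 196 over all genes tested. More reads make an interval narrower.

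Chaperone genes of the cytosol, which were mostly higher in ZGR3, are given beside those of the matrix. The 18 genes listed are those for cytosolic Hsp70, Hsp90, Hsp104 and their helpers, and the small heat shock protein genes HSP26 and HSP42. Of these 18, 9 were at or above 0.32 (against 12.8% of all genes), HSP26 and HSP42 among them. At or below −0.32 was 1 (5.56%, against 19.2%), and the median log2 ratio of the 18 was 0.31. The cytosolic chaperonin CCT had a median of 0.28, and all 8 of its subunit genes were above 0, against 48.0% of all genes. Of these 8, 2 were at or above 0.32 (25.0%, against 12.8%). For the matrix, SSC1 was at −0.36, MGE1 at −0.43, HSP60 at −0.04 and HSP10 at −0.29. The 9 other matrix chaperone genes lay on both sides, with 4 above 0 and 5 below 0, and had a median of −0.08. The interval of the fold lay above 1 for ECM10 (log2 ratio 0.54), MDJ1 (0.26) and HSP78 (0.22). It lay below 1 for TCM62 (−0.42), ZIM17 (−0.32) and CPR3 (−0.27). Proteins of the mitochondrial ribosome, 43 genes with symbols MRPL or MRPS and a number, had a median of −0.43, and 29 were at or below −0.32 (67.4%, against 19.2% of all genes). These are side by side values from the same libraries, and no test of a difference between the lists was possible.

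**Figure D4:**
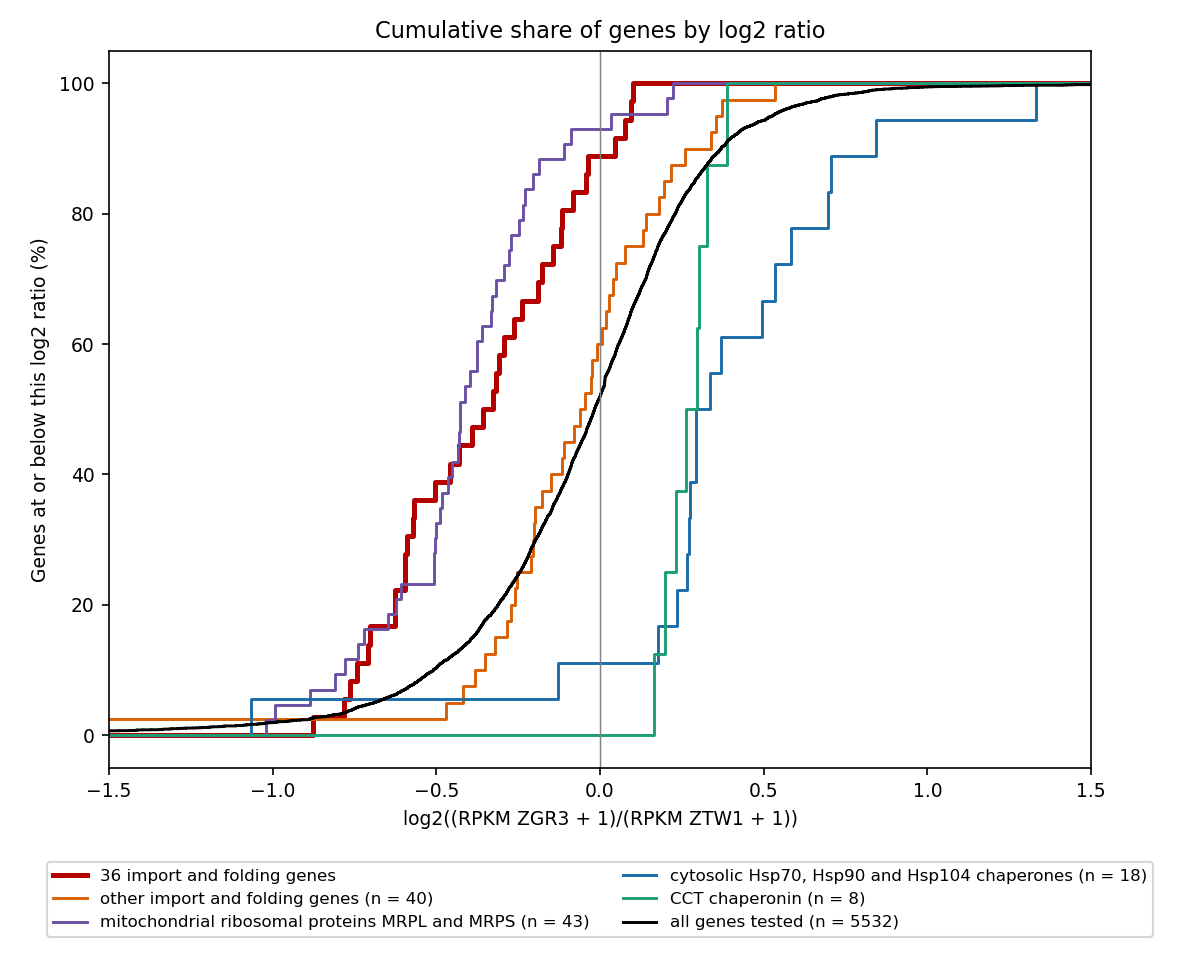
Cumulative share of genes at or below each log2 ratio, ZGR3 over ZTW1, for the 36 import and folding genes, 4 lists set beside them and all genes tested (n in the legend), with 48 genes of the whole table outside the axis. The line of the 36 genes reaches 88.9% at 0 and runs near that of the mitochondrial ribosomal proteins, the other import and folding genes run near all genes, and the cytosolic chaperones and CCT lie to the right.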

How the data were processed

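RNA sequencing of 1 library of ZGR3 and 1 of ZTW1 was used. Per the file headers, the authors deposited the count of reads assigned uniquely to each gene, its RPKM, and its coverage as a percent of length, which was not used for any result. Reads, length and total gave back the deposited RPKM of all 5659 genes within a relative tolerance of 1e-06. All 5659 listed lengths are multiples of 3 and are called coding length. Per the submitters' processing notes the genome build was sacCer2. What aligner, filters and strand setting were applied is not given in the sources used here. Antisense reads can therefore not be told apart. Gene IDs matched the RefSeq table of assembly R64 for 5653 of 5659 genes, which gave names, chromosomes and gene order. No coordinates or sequences are printed because the builds differ, and the planned motif search was not run.

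Genes without reads in a library were set to 0. Log2 ratios used a pseudocount of 1 RPKM for 5532 genes with a mean of at least 1 RPKM. Folds are ratios of reads per total reads with exact 95% Clopper-Pearson intervals, taken from the split of a gene's reads between the libraries. Levels carry exact 95% Poisson intervals. Reads have no molecular identifiers, so intervals cover counting error only. With 1 library per strain no test was made, and genes were counted past folds of 5 to 4 (0.322 on the log2 scale) and of 2. The steps were tested on simulated data.

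All 36 genes were named, and the 4 highest and 4 lowest of 40 related genes. The members and lists were chosen with earlier results of these data known. Alternatives were 8 planned settings and 2 added after seeing the data, among them scaling by the trimmed mean of M values in edgeR 4.0.16 (R 4.3.3). Other tools were numpy 2.4.6 and scipy 1.17.1 for the statistics, pandas 2.3.3 for the tables and matplotlib 3.10.9 for the plots, in Python 3.11.15.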

Additional observations from a re-analysis of the deposited data

How the results depend on the processing

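The counts and the median of the 36 genes kept their direction under the 10 alternative settings run. With each of them 32 genes lay below 0, none was at or above 0.322 and none was 2-fold apart. Some of these settings could not change this. All 36 genes have a mean of at least 10 RPKM, so removing the filter or raising it to 10 RPKM left their values as they were. A change of pseudocount cannot move a ratio across 0. The number at or below −0.322 was 19 as reported and 17 to 21 otherwise. It was lowest when the pseudocount was 5 RPKM and when the running median by coding length was subtracted, and highest after subtraction of the median of the nearest genes, which was added after seeing the data. The median log2 ratio was −0.29 to −0.38, against −0.34 as reported. Scaling by the trimmed mean of M values gave 18 genes and a median of −0.32. Subtraction of chromosome medians, also added later, put MIA40 at −0.64 and PAM17 at −0.33. The medians of nearest genes moved MIA40, TIM21, SSC1 and HSP60 beyond their counting intervals, to −0.49, 0.319, −0.47 and 0.08. HSP60 then lay above 0 and TIM22, at −0.02, below it. The median of the TIM22 carrier translocase was −0.02, so no role had a median above 0. The median of the disulfide relay was then −0.44, against −0.74 in the main setting. Depth limits the genes with few reads, and for 16 of the 36 the interval includes equality. No paired analysis was possible because each strain has 1 library. No library could be left out for the same reason.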

Other observations

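OCT1, the gene of the matrix octapeptidyl peptidase and 1 of the 40 related genes, is listed in the deposited tables under a symbol that reads as a date in October, and was matched here by its gene ID. It had 85 reads in ZGR3 and 107 in ZTW1, a fold of 0.803 (0.597 to 1.08). OCT1 lies on chromosome XI, and its log2 ratio was −0.28, while the 20 genes nearest to it had a median of −0.53. MIM2, of the outer membrane insertase, is listed under its systematic name and had 40 reads in ZGR3 and 45 in ZTW1.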
